A study of Mus musculus with 294 samples.

Results

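Hox genes were followed in neural crest cells of the mouse heart through 9 genes: the 8 protein-coding genes Hoxa2, Hoxa3, Hoxa4, Hoxa5, Hoxb2, Hoxb3, Hoxb4 and Hoxd3, and the non-coding RNA gene Hotairm1. The genes were taken by symbol and not by a measured level, and all 9 were rows of the count table, which holds 15124 genes. The cells came from the outflow tract, around the aorticopulmonary septum, of Wnt1-Cre; R26-EYFP embryos, in which Cre driven by Wnt1 switches on EYFP in the neural crest lineage for good. EYFP-positive cells were sorted and captured singly, and the full-length cDNA of each was sequenced without molecular identifiers, so counts are of reads and not of molecules. The design text names 4 embryonic stages, from day 11.5 to day 17.5 with days 14.5 and 12.5 between, but no label gives a cell's stage, animal or chip. All cells therefore formed 1 group of the same genotype and sort, counted as 1 sample, with no untreated or mutant group beside it. Cells are not replicates, so no test between cells was made and no p-value is given. Cells could be divided only by the leading digit of their names, 1 to 7, called the name series here. Its meaning is not given, and the 7 series held 58, 48, 38, 38, 34, 34 and 44 cells, which are all the cells.

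Hox genes encode homeodomain transcription factors that give cells their position along the head-to-tail axis. They lie in clusters (HoxA, HoxB, HoxC and HoxD), and genes at matching places in different clusters are paralogues with the same number. Genes with low numbers are switched on further forward in the embryo, and retinoic acid sets part of this order. Crest cells of the face that fill the front of the head and the first pharyngeal arch carry no Hox expression, whereas crest of the hindbrain behind it, which supplies the cardiac crest, carries the low-numbered groups. Hox proteins bind DNA together with cofactors of the Pbx and Meis families. Hotairm1 is a non-coding RNA transcribed from the start of the HoxA cluster.

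A cell had between 34046 and 3033857 reads, and the median cell had 1204543. A gene was called detected at 10 CPM (reads of the gene per 1000000 reads of the cell), which is 12.05 reads at the median depth. Series 1 stood apart: its cells had a median of 7718 genes with a read, against medians of 3123 to 4676.5 in series 2 to 7. Abundant genes of series 1 also had a low-end level, a median of 2.43% of the gene's series mean. For the member with the highest series 1 mean (14.4 CPM) this is 0.350 CPM, below the detection level. The crest origin of the cells rests on the sort. Of the 7 listed crest genes, Sox10 and Pax3 were detected in 4.76% and 0.340% of cells, Tfap2a in 15.3% and Ets1 in 31.6%, and all 8 listed markers of outflow mesenchyme were detected in 58.2% to 99.7%. Of the list for Hox-free head crest, the 5 genes measured (Dlx1, Dlx2, Dlx5, Dlx6 and Alx4) were detected in 0.680% to 5.10% of cells.

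The members lie in 3 clusters, placed here by GENCODE M21 on GRCm38, the same build as the mm10 of the submitters' notes. On chromosome 6, Hotairm1 runs from 52156902 to 52162119 on the plus strand, followed on the minus strand by Hoxa2 (52162417 to 52164831), Hoxa3 (52169062 to 52213336), Hoxa4 (52189671 to 52191753) and Hoxa5 (52201754 to 52204587). Hoxb4 (96318267 to 96321638), Hoxb3 (96323326 to 96347930) and Hoxb2 (96350525 to 96354012) lie on the plus strand of chromosome 11. Hoxd3 (74711927 to 74748442) lies on the plus strand of chromosome 2. The gene models overlap each other and antisense genes, and the kit does not mark strand, so reads of overlapping exons cannot be told apart. Exons of other genes cover 62.8% of the exon length of Hoxd3, 52.9% of Hoxb3 (all antisense, from Hoxb3os), 43.1% of Hotairm1, 27.3% of Hoxb2 (Hoxb3os), 27.1% of Hoxa3, 15.997% of Hoxa4 and 15.0% of Hoxa2. No other exon covers Hoxb4 or Hoxa5.

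Hoxb4 and Hoxd3 lie on different chromosomes and were found in the same cells at the highest ratio to the product of their shares among member pairs with at least 5 shared cells. Their upstream sequences are printed for that reason. They come from the RefSeq promoter table on GRCm38.p6, in which Hoxa2, Hoxa3, Hoxa5, Hoxb4 and Hoxd3 had an entry. Both stretches lie on the plus strand. Each ends at the base before the GENCODE start of the gene, which for Hoxb4 is also the RefSeq start and for Hoxd3 lies upstream of it. The GENCODE start of Hoxd4, at 74711929 on the same strand, lies beside that of Hoxd3, so the Hoxd3 stretch is upstream of both genes. Capitals mark TGACCT, the reverse complement of AGGTCA, a core motif of retinoic acid receptor sites, searched on both strands.
Hoxd3, chr2:74711743-74711926: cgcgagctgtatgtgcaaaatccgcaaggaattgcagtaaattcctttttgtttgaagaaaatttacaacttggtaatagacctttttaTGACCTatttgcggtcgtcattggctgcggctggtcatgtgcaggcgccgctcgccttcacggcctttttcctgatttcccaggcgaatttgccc
Hoxb4, chr11:96318017-96318266: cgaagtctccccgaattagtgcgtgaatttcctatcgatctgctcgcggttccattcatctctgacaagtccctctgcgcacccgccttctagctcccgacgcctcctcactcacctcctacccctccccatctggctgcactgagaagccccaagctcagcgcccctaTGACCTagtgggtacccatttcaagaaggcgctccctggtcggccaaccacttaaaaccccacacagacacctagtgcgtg
The motif began at base 90 of the printed Hoxd3 stretch and at base 170 of the Hoxb4 stretch. Counted from the RefSeq start, these are positions -161 and -81. Among the 5 matched members, Hoxa2, Hoxa3 and Hoxa5 held no match in the 250 bases upstream of the RefSeq start, and 14.02% of 32851 promoters did hold 1. A motif of the Pbx-Hox type, TGATNNAT, was found on either strand upstream of Hoxa2 among the members, at position -111, and in 7.68% of promoters. A match of these letters is a description and not a binding site.

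Most cells had no member above the detection level. At least 1 member was detected in 99 cells (33.7% of all, 95% exact Clopper-Pearson interval 28.3% to 39.4%), and a coding member in 76 cells (25.9%). Intervals cover counting error over cells only, and not the spread between animals. Whether intervals overlap is therefore a description and not a test, also where they are over the same cells. The median CPM over all cells was 0 for each of the 9 members. Of the 9, 2 members reached 10% of cells, Hotairm1 and Hoxb2, whereas 58.5% of all genes did. The median share over the members was 6.12% of cells, and over all genes 14.6%.

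**Figure D1:**
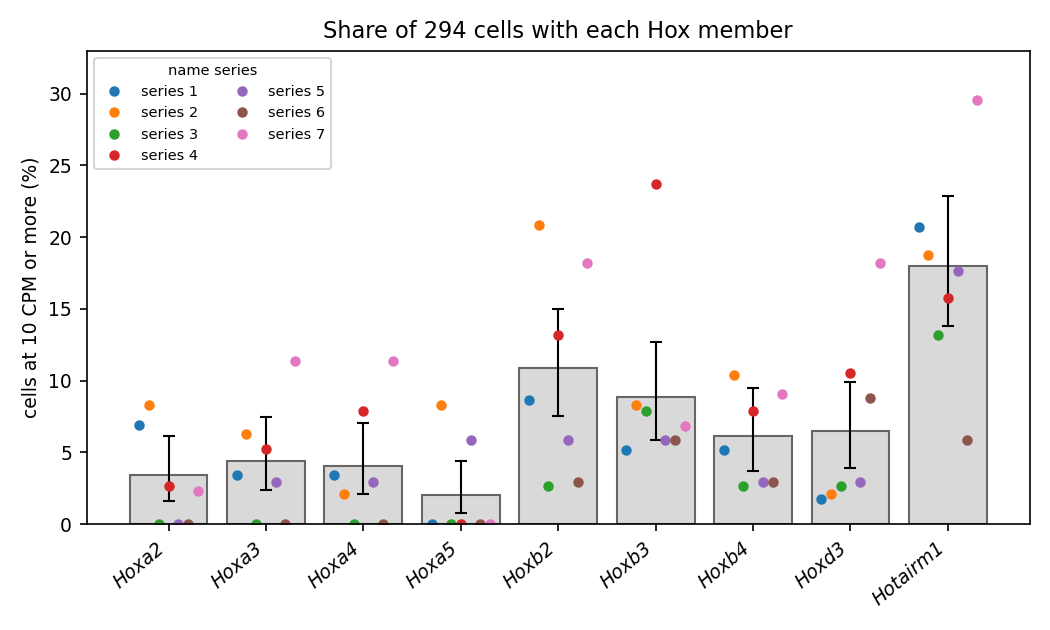
Share of cells (%) with each member at 10 CPM or more, over all cells (bars, with 95% Clopper-Pearson intervals) and in each of the 7 name series (points). Hotairm1 stands highest at 18.03% and Hoxa5 lowest at 2.04%, and the points of most members spread down to 0 or near it.

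Hotairm1 was the most widely detected member. It reached 10 CPM in 53 cells (18.03%, 13.8% to 22.9%) and had at least 1 read in 83. Its levels were low where found, with a median of 25.1 CPM in the detected cells and a highest value of 168.998 CPM. By name series it was found in 12, 9, 5, 6, 6, 2 and 13 cells, so every series held it.

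Among the members, group 2 is the most forward part of the code. Hoxb2 was detected in 32 cells (10.9%, 7.56% to 15.0%), with a median of 82.7 CPM among them and a highest value of 438.6 CPM. The count per series was 5, 10, 1, 5, 2, 1 and 8 cells, highest in series 2 and 7. Hoxa2, which gives the second pharyngeal arch its identity, was detected in 10 cells (3.40%, 1.64% to 6.17%), with a median of 92.1 CPM and a highest value of 210.5 CPM. Series 1 and 2 held 4 of these cells each, series 4 and 7 held 1 each, and series 3, 5 and 6 held 0. Either gene was detected in 38 cells (12.9%), and the interval of Hoxb2 lay wholly above that of Hoxa2.

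Group 3 was the paralogue group detected in the most cells, 49 (16.7%, 12.6% to 21.4%), though its interval overlaps that of group 2 (9.31% to 17.3%). It pools Hoxa3, Hoxb3 and Hoxd3, whereas group 2 pools Hoxa2 and Hoxb2, so the order partly follows the number of genes pooled. Hoxb3 was found in 26 cells (8.84%, 5.86% to 12.7%) and in every series (3, 4, 3, 9, 2, 2 and 3 cells), with series 4 highest. Its median among these cells was 36.01 CPM and its highest value, 867.0 CPM, was the highest of any member. Hoxd3 was found in 19 cells (6.46%, 3.94% to 9.91%), also in every series (1, 1, 1, 4, 1, 3 and 8 cells), with series 7 holding the most. Its median among them was 104.8 CPM, and 10 of the 19 cells had 100 CPM or more. Hoxa3, whose loss in mice is known to affect the thymus, the parathyroid and the third-arch vessels, was found in 13 cells (4.42%, 2.38% to 7.44%), of which 5 were in series 7 and 0 in series 3 and 6. Its highest value was 223.8 CPM. The intervals of these 3 paralogues overlap.

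Members of groups 4 and 5, pooled by group, were found in fewer cells than those of group 2 or 3, and mostly with a lower-numbered gene. The group 4 interval (5.58% to 12.3%) overlaps that of group 2 (9.31% to 17.3%). Single genes did not keep this order: Hoxb4 was found in more cells than Hoxa2 or Hoxa3, and Hoxa4 in more than Hoxa2. The pools differ in their number of genes and leave out the measured rows Hoxd4, Hoxc4 and Hoxb5. Hoxb4 was detected in 18 cells (6.12%, 3.67% to 9.50%) and in every series (3, 5, 1, 3, 1, 1 and 4 cells), at low levels, with a median of 29.7 CPM in those cells and 2 cells at 100 CPM or more. Hoxa4 was detected in 12 cells (4.08%, 2.13% to 7.02%), with a median of 101.8 CPM and a highest value of 565.4 CPM. Series 7 held 5 of its cells, series 4 held 3, and series 3 and 6 held 0. Hoxa5 was detected in 6 cells (2.04%, 0.753% to 4.39%), 4 in series 2 and 2 in series 5. Its 0 of 58 cells in series 1 allows a share of up to 5.17%, and 0 of 44 in series 7 up to 6.82%. A member of group 4 or 5 was found in 29 cells (9.86%, 6.71% to 13.9%), and 23 of these also held a coding member of group 2 or 3.

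**Figure D2:**
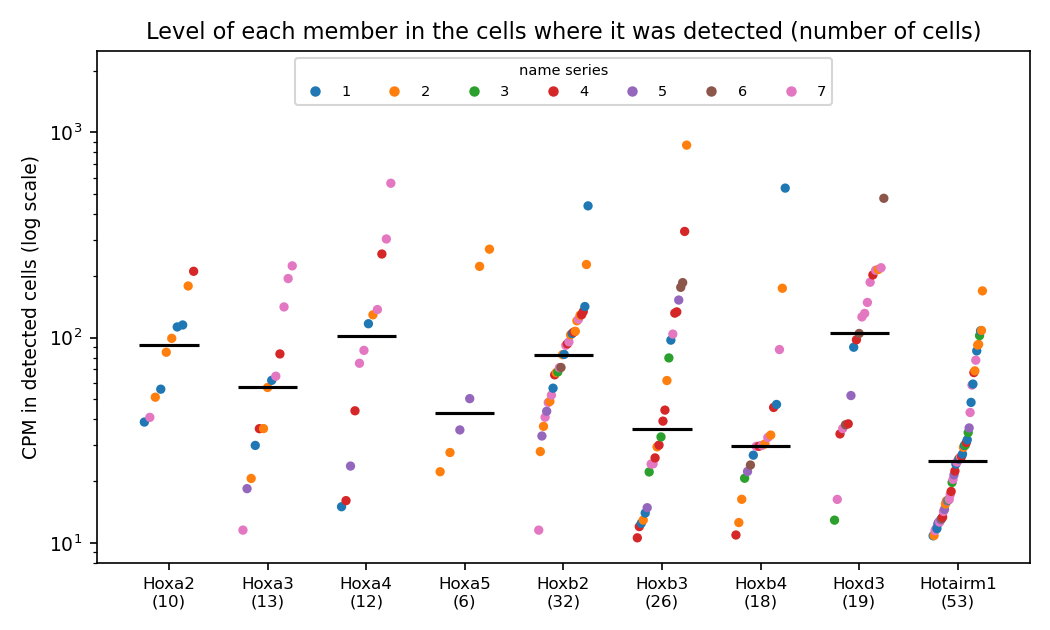
Level of each member (CPM, log axis) in every cell where it was detected, coloured by name series. Values run from the detection level of 10 CPM to 867.0 CPM in Hoxb3, and most Hotairm1 points sit low, around their median of 25.1 CPM.

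The highest paralogue group in each cell was taken over the coding members only, and 74.1% of cells had none. It was group 2 in 15 cells, group 3 in 32, group 4 in 23 and group 5 in 6. Other Hox rows of higher groups, such as Hoxd4 in 10 cells, were not counted, so these are not limits of a cell's whole Hox expression. By cluster, a HoxB member was detected in 59 cells (20.1%, 15.6% to 25.1%), a coding HoxA member in 33 (11.2%, 7.85% to 15.4%) and Hoxd3 in 19. The HoxB interval lay above the other 2. Both HoxA and HoxB were present in 20 cells (6.80%).

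The share of cells with a member differed among the name series. It was highest in series 7, with 22 of 44 cells (50.0%, 34.6% to 65.4%), and in series 2, with 21 of 48 (43.8%), followed by series 4 with 39.5%. Series 6 was lowest with 7 of 34 cells (20.6%, 8.70% to 37.9%), and series 3 had 21.1%, series 1 27.6% and series 5 29.4%. The intervals of series 6 and series 7 overlap. In series 3 no coding HoxA member was detected, and 0 of 38 cells allows a share of up to 7.89%. Series 6 also held no coding HoxA member (0 of 34 cells, which allows up to 8.82%). Series 2, in contrast, had coding HoxA in 11 of 48 cells (22.9%, 12.03% to 37.3%).

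Reads below the detection level were common in series 1. Of the 70 member values with a read there, 38 (54.3%) were under 10 CPM and 22 were of a single read. Over all cells, 35.7% of the member values with a read were under 10 CPM.

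Per length, Hotairm1 was also the highest. Pooled over all cells, its level was 7.87 CPM per kb of exon (1.91 to 17.6 over the series), ahead of Hoxb2 at 3.596 (0.234 to 7.31), Hoxa4 at 3.33 (0 to 15.2) and Hoxa2 at 2.74 (0 to 7.55). Next in pooled CPM per kb came Hoxd3 at 2.39 (0.0741 to 6.46), Hoxa5 at 1.88 (0 to 9.34) and Hoxb3 at 1.63 (0.883 to 3.70). Hoxb4 at 0.801 CPM per kb (0.223 to 1.12) and Hoxa3 at 0.704 (0 to 3.01) were lowest. No neighbours in this order differ beyond their ranges over the series. Few cells set these pooled levels: the highest cell gave 11.95% of the reads of Hotairm1 and 51.2% of those of Hoxa5. Without series 1, 7 members change rank, and without series 2, 8 do.

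Other Hox cluster genes were also rows. Haglr, a non-coding RNA gene of the HoxD cluster, was detected in 13 cells (4.42%), and Hoxd4 in 10 cells (3.40%). Hoxc4 was detected in 6 cells, Hoxaas2 in 5, Hoxb5 and Hoxd8 in 4 each, and Hoxb9 in 2. The 14 protein-coding Hox rows were searched for among 39 Hox gene names, and the other genes were not analysed here. Genes that overlap Hoxd3 were found with it: Hoxd3 was detected in 5 of the 10 cells with Hoxd4 (1.04 from the product of shares) and in 7 of the 13 with Haglr (1.47 from the product). The part of shared exons in these counts was not tested.

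Members gathered in the same cells. To set this against independent detection, the shares of each name series were multiplied and summed, which gives the number of cells with each number of members. With 3 or more members there were 24 cells, against 7.87 from the product, a ratio of 3.05. At the other end, 66.3% of cells had no member against 52.5% from the product, and 49 cells had exactly 1 against 99.2. With 4 or more members there were 8 cells against 1.03. When all cells were thinned to 250000 reads (25 shallower cells left out), 25 cells had 3 or more members against 7.31. Without series 1 the count was 19 against 7.21, and without series 7 it was 17 against 4.65. The same counts were not made for other genes of like detection, so whether the gathering is particular to the members was not tested.

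**Figure D3:**
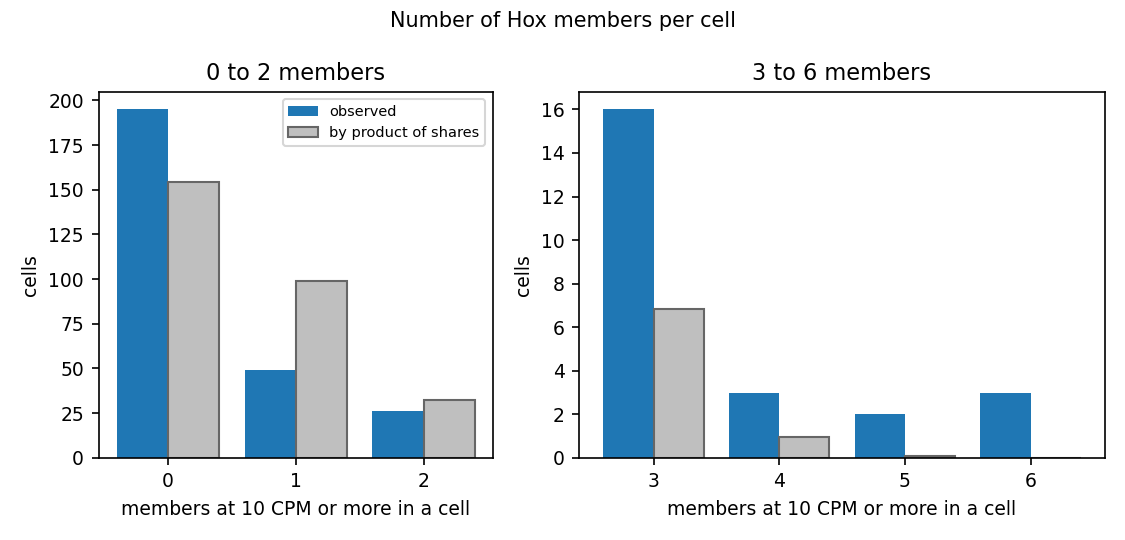
Number of cells by the number of members detected per cell, as found and as given by the product of shares within name series. The panels for few and for more members have separate linear axes. The found counts lie above the product at 0 members and from 3 members up, and below it at 1 and 2 members.

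Cells with more members were slightly deeper. Cells without a member had a median of 1118060 reads and 4239 genes (95% interval 4050 to 4658), and cells with 2 or more had 1331951 reads and 4672 genes (4230 to 5352). The ratio at 3 or more members was 3.42 in the cells thinned to equal depth.

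The highest number of members in a cell was 6, in 3 cells of 3 name series. The series 4 cell held Hoxa4 at 255.6 CPM, Hoxd3 at 202.1 CPM, Hoxb3 at 131.7 CPM, Hoxb2 at 129.3 CPM, Hoxb4 at 45.7 CPM and Hotairm1 at 17.8 CPM. The series 7 cell held Hoxa4 at 302.6 CPM, Hoxa3 at 223.8 CPM, Hoxb3 at 104.1 CPM, Hotairm1 at 58.7 CPM, Hoxb2 at 48.3 CPM and Hoxa2 at 40.9 CPM, with Hoxd3 at 0. In the series 5 cell, Hoxb3 was at 152.5 CPM, Hoxd3 at 52.2 CPM, Hoxa5 at 35.5 CPM, Hoxa4 at 23.7 CPM, Hoxb4 at 22.3 CPM and Hotairm1 at 16.01 CPM. These cells share Hoxa4, Hoxb3 and Hotairm1, and otherwise differ in which paralogues they carry. Their depth of 1291146 to 1436158 reads was near the median of all cells.

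No combination was common. The 99 cells with a member held 47 different combinations, 32 of them in 1 cell each. Hotairm1 alone was the most frequent, in 23 cells and all 7 series, followed by Hoxb2 alone in 9, Hoxb3 alone in 5, Hoxb3 with Hotairm1 in 5 and Hoxd3 alone in 4.

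Pairs of members were detected together more often than the product of their shares, in and between clusters. By the 10% rule only Hoxb2 with Hotairm1 could be compared, in 12 cells against 6.61. All 36 pairs were therefore taken after that was seen. Of these, 35 lay above the product, and Hoxa3 with Hoxa5 did not (0 cells against 0.309). Pairs of genes outside the Hox clusters were not counted, so the share to be found among other pairs of like detection is not known. For 8 pairs the product lay below the 95% interval of the share found, and for 0 pairs above it. Hoxb4 and Hoxd3, the genes whose upstream sequences are printed above, were found together in 8 cells of 6 series against 1.34, which is 8 of the 18 Hoxb4 cells and 8 of the 19 Hoxd3 cells. Hoxa4 shared 5 cells with Hoxb4 (0.928 from the product), 6 with Hoxb3 (1.297) and 8 with Hotairm1 (2.73).

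Summed over pairs, those within a cluster gave 49 shared detections against 18.8 (ratio 2.60 over 13 pairs), and pairs of different clusters gave a ratio of 2.65 over 23 pairs. Among coding genes alone the ratios were 2.70 within a cluster and 3.02 between clusters. Paralogues of the same group, such as Hoxa3 and Hoxb3, gave 2.63 over 5 pairs. The pairs share cells and genes, so these ratios are not independent, and they were not tested against each other.

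**Figure D4:**
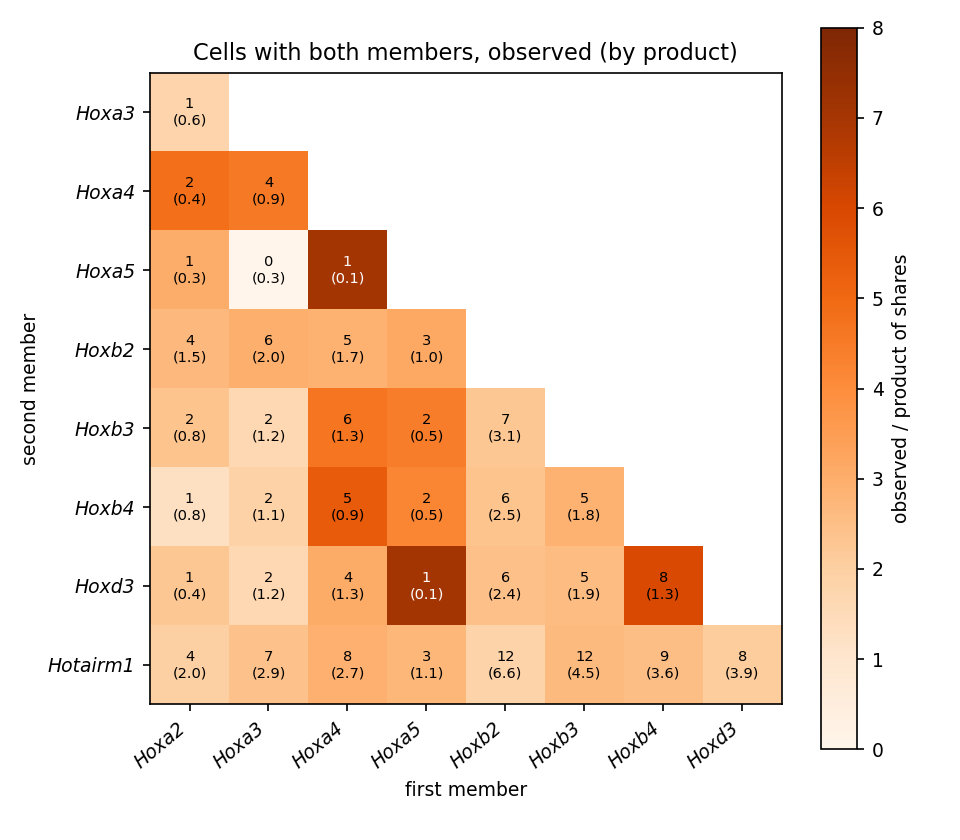
Cells with both members of each pair (number in each square) and the ratio to the product of shares within name series (colour). Hoxb4 with Hoxd3 holds 8 cells against 1.34, and pairs of Hoxa5 rest on 0 to 3 cells.

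Hotairm1 went with coding members of all 3 clusters. It was detected in 30 of the 76 cells with a coding member (39.5%, 28.4% to 51.4%; 14.8 cells from the product) and in 23 cells without any (10.6%, 6.81% to 15.4%). These intervals do not overlap. By coding gene, it was found in 8 of 12 Hoxa4 cells, 7 of 13 Hoxa3 cells, 9 of 18 Hoxb4 cells, 12 of 26 Hoxb3 cells, 8 of 19 Hoxd3 cells and 12 of 32 Hoxb2 cells. Its ratio to the product was 2.50 with coding HoxA genes, its own cluster, and 2.20 with HoxB and HoxD genes. Cells with a coding member had a median of 4573.5 genes with a read, those without had 4291.

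Some genes outside the clusters followed the summed level of the members. For each gene detected in at least 10% of cells, Spearman's correlation with the summed CPM of the members was taken within each name series, and the median over the 7 series is given. These are descriptions across cells, which are not replicates and which differ in depth. A positive sign in all 7 series was found for 160 of 8853 genes (1.81%), and a negative sign in all 7 for 100 (1.13%). The highest was Fbln5, which encodes the elastic-fibre protein fibulin-5, with a median of 0.46 (0.12 to 0.70 over the series). Cxcl12, the chemokine that binds Cxcr4, followed with 0.43 (0.11 to 0.72). Hotairm1 came next with 0.41 (0.13 to 0.55) against the other members, then Nupr1, a stress-response gene, with 0.33, and Cdkn1c, an inhibitor of the cell cycle, with 0.32. The lowest were Limch1 with a median of -0.28, the cardiac transcription factor gene Tbx20 with -0.27 (-0.67 to -0.10) and the tubulin gene Tuba1a with -0.27. With genes detected per cell held as a partial term, Fbln5 stood at 0.46, Cxcl12 at 0.42 and Tbx20 at -0.27. Against Hotairm1 alone the median was 0.46 for Fbln5 and 0.31 for Cxcl12, and against the coding members alone it was 0.37 for each. For Tbx20 it was -0.28 against the coding members, with a negative sign in all 7 series, and -0.17 against Hotairm1 alone, where 3 of 7 series were positive. Nupr1 was positive in 5 of 7 series against Hotairm1 alone and in 6 of 7 against the coding members. Cdkn1c was positive in 7 of 7 against each. The median of Nupr1 was 0 CPM both in cells without a member and in cells with 2 or more.

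Cells rich in Fbln5 held most of the members. This split and the next ones on Cxcl12 and Tbx20 were made after the correlations were seen, so they describe the same pattern and add no support to it. Cells with 100 CPM or more of Fbln5 made up 59.9% of all cells, and 80 of them had a member (45.5%, 37.9% to 53.1%; 58.8 from the product). Among the other 40.1% of cells, 19 had a member (16.1%, 9.98% to 23.997%). The share was higher in the Fbln5-rich cells in 7 of 7 series, from 24.1% against 11.1% in series 3 to 73.1% against 16.7% in series 7. The Fbln5-rich cells had more genes with a read, a median of 4838 against 3933.5, and its part in the split was not tested. Series 1 gave 52 of the rich cells. Without series 1 the shares were 51.6% and 17.0%.

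Hoxa4, Hoxb4 and Hoxd3 were detected in Fbln5-rich cells alone. All 12 Hoxa4 cells, all 18 Hoxb4 cells and all 19 Hoxd3 cells were among them, where the product gives 7.14, 11.005 and 10.4. Of the Hoxb3 cells 24 were Fbln5-rich and 2 were not, and of the Hotairm1 cells 47 were and 6 were not. Hoxb2 had 23 and 9 cells, Hoxa3 10 and 3, Hoxa2 7 and 3, and Hoxa5 5 and 1. Of the other Hox rows named above, Haglr (13 cells), Hoxaas2 (5), Hoxb5 (4) and Hoxd8 (4) were also detected in Fbln5-rich cells alone. Hoxd4 had 9 and 1 cells, Hoxc4 3 and 3, and Hoxb9 0 and 2. Median Fbln5 was 93.4 CPM in cells without a member, 1126 CPM with 1 member and 3010 CPM with 2 or more.

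Cxcl12 divided the cells with less difference in depth. A member was found in 55 of the 88 cells with 100 CPM or more of Cxcl12 (62.5%) and in 44 of the other cells (21.4%), again higher in 7 of 7 series. Hoxa2 was detected in 8 cells of the first set and 2 of the second, Hoxa5 in 5 and 1, and Hoxb2 in 18 and 14. The median number of genes with a read was 4655.5 and 4209. Median Cxcl12 was 0.430 CPM in cells without a member and 356.7 CPM in cells with 2 or more.

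Tbx20 ran the other way. A member was found in 70 of the cells with 100 CPM or more of Tbx20 (28.8%) and in 29 of the 51 cells under it (56.9%). This order held in 6 of 7 series. In series 3, where 2 cells were under 100 CPM, it was reversed. Series 2 gave 22 of the 51 cells under 100 CPM, and 15 of them (68.2%) had a member. Hoxb2 was detected in 14 of the 51 cells under 100 CPM and in 18 of the others (7.41%).

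**Figure D5:**
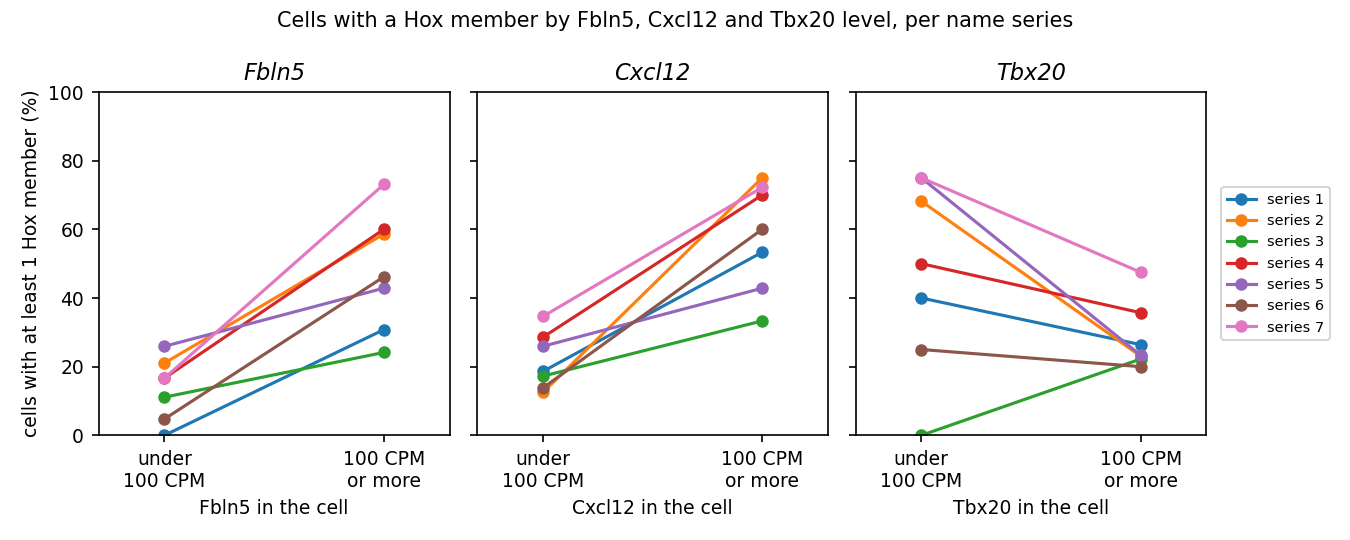
Share of cells (%) with at least 1 member, in cells under 100 CPM and at 100 CPM or more of Fbln5, Cxcl12 and Tbx20, with a line for each name series. The lines slope upward for Fbln5 and Cxcl12 in all 7 series, and downward for Tbx20 in 6 of 7.

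Members were spread over contractile and dividing cells. Of the cells with 100 CPM or more of Acta2, the smooth muscle actin gene, 58 had a member (37.4%, 29.8% to 45.5%), and of the other cells 41 did (29.5%, 22.1% to 37.8%). Of the 94 cells with Mki67, a gene of dividing cells, 31 had a member (32.98%, 23.6% to 43.4%), and of the other 200 cells 68 did (34%, 27.5% to 41.02%). In both splits the intervals overlap. Hotairm1 was detected in 11 of the 94 Mki67 cells (11.7%, 5.99% to 19.97%) and in 42 of the other 200 (21%, 15.6% to 27.3%), and these intervals also overlap. In the Acta2 split Hotairm1 was in 36 of the richer cells (23.2%, 16.8% to 30.7%) and 17 of the others (12.2%, 7.29% to 18.9%), again overlapping. The 6 listed smooth muscle markers had a median correlation of 0.16 with the summed members, against 0.008 over all genes tested. Their medians were all positive, from 0.06 for Tagln to 0.33 for Myh11 (-0.09 to 0.57 over the series), with Acta2 at 0.23 (-0.08 to 0.40). None of these markers kept the same sign in all 7 series.

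Cofactors of Hox proteins were detected far more widely than the members. All 9 listed cofactor genes were rows, and their median share was 41.5% of cells. Meis2 was detected in 82.3% of cells, Pbx3 in 47.3% and Meis1 in 42.5%, while Pbx4 was in 2.72%. Of the 8 tested for correlation with the summed members, 0 were positive in all 7 series and 1 was negative, Pbx3.

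Genes of retinoic acid handling were detected in a median of 18.4% of cells, over 15 of 18 listed genes. The receptor genes Rarb, Rarg and Rara were detected in 34.7%, 25.9% and 23.1% of cells. Aldh1a2, which makes retinoic acid, was detected in 1.70%, and Cyp26b1, which breaks it down, in 11.6%. Of the 10 tested, Rara alone had a positive correlation in all 7 series (median 0.13).

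Chromatin and upstream regulators of Hox genes were detected in a median of 32.99% of cells, over 11 of 14 listed genes. Ctcf was found in 67.7%, Kmt2a in 61.6% and the Polycomb gene Ezh2 in 59.2%. Of the 10 tested, 0 were positive in all 7 series and 1 was negative, Egr2, a zinc-finger gene of the hindbrain.

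Compared with other transcription factors of the same cells, the members were detected less widely. The 14 cardiac outflow factors measured had a median share of 20.6% of cells, and the 8 mesenchymal factors of the Twist, Prrx, Snail and Zeb families 50.3%, against 6.12% for the members. Of the 8 cardiac factors tested for correlation, 1 was negative in all 7 series, Tbx20. Of the 8 mesenchymal factors, 2 were negative in all, Prrx1 and Snai1. Among the outflow mesenchyme markers, Col1a1 was positive in all (median 0.10) and Dcn negative in all (-0.18).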

How the data were processed

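The members and gene lists were chosen with earlier results of these data known. Single cells were captured on a Fluidigm C1 chip and libraries made with SMARTer v4 and Nextera XT, per the labels' protocols. The submitters' processing notes name HISAT2 2.1.0, featureCounts, Seurat and mm10, with no parameters. The authors deposited raw read counts for 15124 genes in all cells; annotation and strand setting are not given in the sources used here. A second deposited table holds a rounded, depth-corrected score (SCT) for the same cells, used as an alternative only.

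Counts were divided by each cell's total and multiplied by 1000000 (CPM). Detection was 10 CPM. Shares carry 95% exact Clopper-Pearson intervals, and the limit for 0 is 3 cells of the total. Products of shares were taken within name series and weighted by cells. Correlations used log2(CPM + 1); the search was tested on simulated data. Thinning used 250000 reads. No doublet caller was run, since the labels' protocols state that captured cells were photographed. Named genes were the members, the other Hox cluster rows, the listed cofactors, retinoic acid genes, regulators and transcription factors, and the 5 highest and 3 lowest correlations with the same sign in all 7 series; a rule for single members in at least 20% of cells named none. Results for a few listed genes are not reported here. Python 3.11.15, numpy 2.4.6, pandas 2.3.3 and scipy 1.17.1 were used. Alternatives were other detection levels, 1 read, thinning, the score table, pooled shares, transcript length, other correlation filters and each name series left out.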

Additional observations from a re-analysis of the deposited data

How the results depend on the processing

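Shares moved with the detection level. The share with at least 1 member (33.7%) was 20.4% at 50 CPM, 13.6% at 100 CPM, 46.3% at 1 read and 47.3% at 1 in the score table, and that with a group 4 or 5 member (9.86%) was 4.76%, 3.40%, 14.6% and 15.99%. The ratio at 3 or more members (3.05) was 5.90 at 50 CPM, 9.61 at 100 CPM, 1.88 at 1 read and 1.73 in the score table, above 1 in each. Of 36 pairs, the number above the product (35) was 22 at 50 CPM and 12 at 100 CPM, where fewer cells carry a member. Pairs above the product under the 10% rule (1) numbered 3 at 5 CPM, 6 at 1 read, and 0 at 50 CPM and at 100 CPM; leaving out each name series gave 0 to 1, with 0 without series 2 or series 7. The order per kb changed rank for 7 members by longest transcript, and for 0 to 8 on leaving out a series, with 7 without series 1, 8 without series 2, 2 without series 6 and 5 without series 7. Of the 5 genes most like the members, 3 were shared with the partial correlation, with genes in at least 30% of cells and with genes in 3 cells. In all, 63 values for the main results stayed within the spread or 1.5 times and 28 moved. For single genes 150 stayed and 23 moved. The named correlations were picked for the same sign in all 7 series, so leaving out a series could not reverse them. With genes detected held as a partial term, none changed sign. No paired analysis was possible because the cells form 1 group. Depth limits shares near 0.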

Other observations

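At least 3 glial markers (among them Sox10 and Fabp7) reached 10 CPM in 16 cells, 8 in series 1 and 8 in series 2. A member was detected in 5 of them, against 5.71 from the product of shares: in 4 of the 8 in series 2 and 1 of the 8 in series 1. Hoxa2 was detected in 3 (1.22 from the product) and Hoxb2 in 3 (2.36), all of them in series 2, and Hotairm1 in 1 (3.16). Each member of groups 3 to 5 was detected in 0, which allows up to 18.8% of these 16 cells, where the product gives between 0.305 and 1.25 cells. They held 3 of the 6 cells with Hoxc4 and both cells with Hoxb9, a gene of the trunk region. With the markers at 100 CPM, 11 cells were left, with Hoxa2 in 3, Hoxb2 in 3, Hoxc4 in 3, Hoxb9 in 2 and Hotairm1 in 0. At these numbers of cells the difference from the others was not tested.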
